A study of Mus musculus with 18 samples.

Results

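The genes of the mitochondrial carrier family Slc25 were followed in epithelial cells sorted from the ileum of mice, the stretch of small intestine that joins the colon. Members were the protein-coding genes whose symbol is Slc25a followed by a number, which gave 47 of the 47729 gene identifiers in the count tables. Of these, 41 passed the filter on low counts, among 15572 genes that passed it in all. Polyadenylated RNA was sequenced in bulk from 3 groups of 6 libraries each: females on day 7 of lactation (Lactating), virgin females (VirginF) and virgin males (VirginM), with the virgin animals matched in age. The labels name no strain, allele, transgene, age or sorting gate, and they list the diet RM3 for breeding and RM1 for maintenance without assigning one to a library. They do not say that each library is a separate animal, so p-values cover only the spread among these samples, which may be technical.

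Carriers of this family sit, with few exceptions, in the inner mitochondrial membrane and exchange nucleotides, phosphate, carboxylates, amino acids, cofactors and iron between the cytosol and the matrix. Each is built from repeats of the same folded unit and most swap a substrate on one side for a substrate on the other. In the small intestine they serve the export of ATP, the oxidation of glutamine, the making of citrulline and the entry of fatty acids into mitochondria, while cells move from dividing in the crypt to absorbing on the villus.

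Library totals ran from 34577104 to 49039300 counts. Values are given as CPM, counts normalised to a library size that was scaled with TMM factors. A count of 3, taken as the floor, equals 0.0612 to 0.0868 CPM before that scaling. The summed level of 8 epithelial markers was 13450 to 23130 CPM, and the 4 markers of ileal enterocytes (Fabp6, Slc10a2, Slc51a, Slc51b) summed to 2942 to 15610 CPM. The 12 immune markers summed to 12.6 to 51.7 CPM, with 3 or 4 of them at or under the floor in every library of a group. The 9 stromal and muscle markers summed to 4.74 to 13.9 CPM and the 6 neuronal and glial markers to 0.176 to 0.750 CPM. Virgin female 2 and virgin male 6 stood apart, with 2.89% and 3.35% of counts on Gm42418, a gene overlapping ribosomal RNA, against 0.137% to 0.408% in the others. Libraries also differed in a cell cycle score, the mean log2 CPM of 35 cell cycle genes, which is high where crypt cells make up more of the RNA. It was 4.44 ± 0.573 in virgin females, 4.50 ± 0.618 in lactating females and 4.89 ± 0.170 in males (SD, n = 6 each). In bulk RNA, fewer cells of a type and less RNA per cell cannot be told apart.

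The family was led by the carriers that supply and export ATP. Per length of exon, Slc25a5, an ADP/ATP carrier, stood at 749 ± 198 CPM per kb, above Slc25a3, the phosphate carrier, at 130 ± 25.7 CPM per kb (SD, n = 18 each). Slc25a24, a calcium-regulated carrier of ATP-Mg and phosphate, came next at 79.7 ± 9.50 CPM per kb. These 3 levels were separated by more than their SDs. The citrate carrier Slc25a1 at 50.3 ± 6.88, the oxoglutarate carrier Slc25a11 at 48.5 ± 10.5 and the dicarboxylate carrier Slc25a10 at 45.5 ± 8.06 CPM per kb followed. Neighbours among these last 3 did not differ beyond their spread. Length was taken over all annotated exons of a gene, which need not match the transcript expressed. By mean CPM alone, Slc25a15 (224) and Slc25a22 (195) stood above Slc25a1 (109), while the first 3 carriers kept their order. The lowest of the tested carriers was Slc25a53 at 0.113 ± 0.0310 CPM per kb.

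Summed over all members, the family reached 4333 ± 659 CPM in lactating females, 4341 ± 1001 CPM in virgin females and 3500 ± 437 CPM in virgin males (SD, n = 6 each). The ranges overlapped, at 3328 to 5112, 3199 to 6044 and 2906 to 4033 CPM. Slc25a5 and Slc25a3 together made up 43.0% to 53.3% of this sum. The share of counts from genes encoded in mitochondria was 6.08% ± 0.415 in virgin females, 6.34% ± 0.907 in lactating females and 5.42% ± 0.765 in males (SD, n = 6 each).

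**Figure D1:**
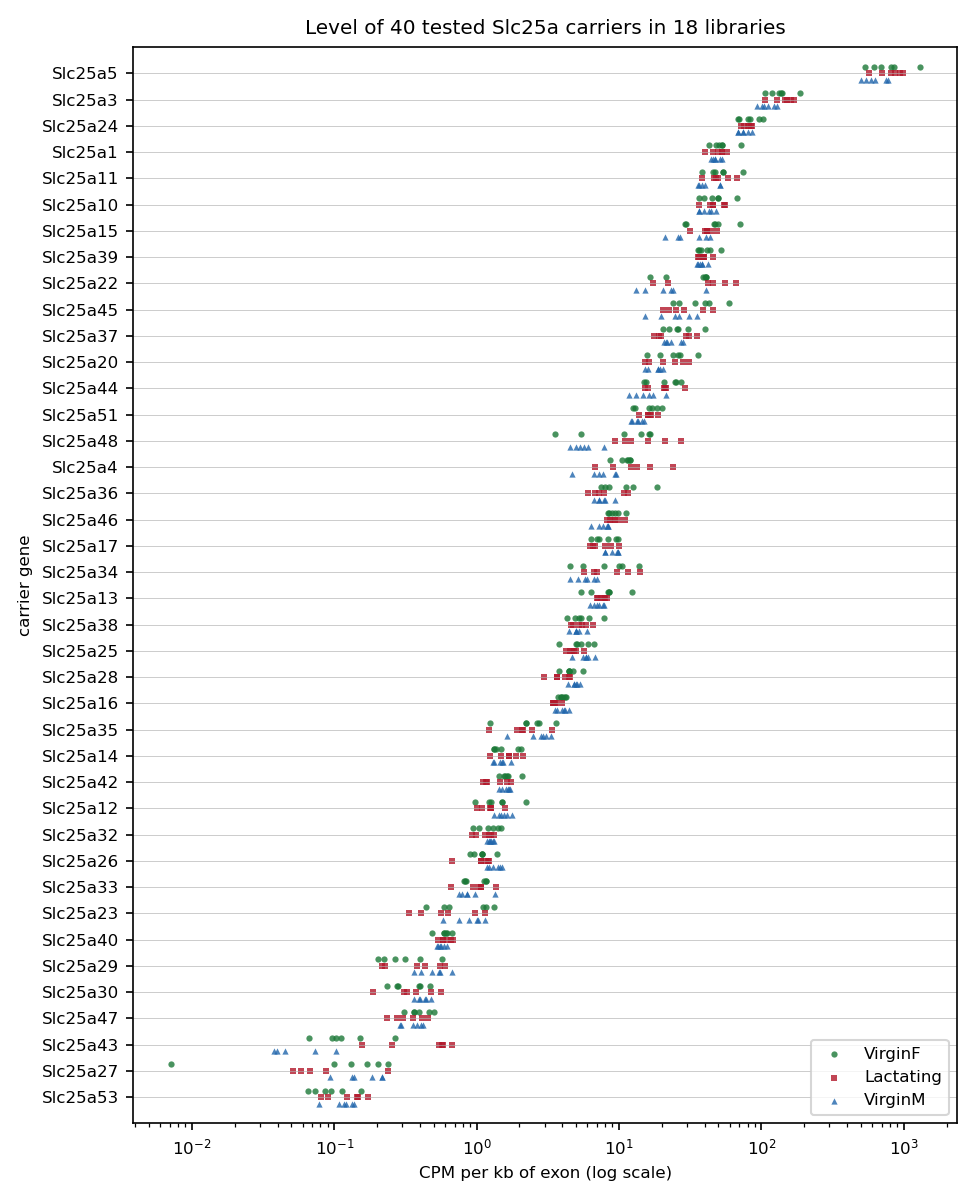
Level of 40 of the 41 tested carriers per library, in CPM per kb of exon on a log axis, ordered by its mean over 18 libraries, with circles for virgin females, squares for lactating females and triangles for virgin males. Slc25a5 lies near 749 CPM per kb and Slc25a53 near 0.113; libraries at 0 (virgin male 4 for Slc25a43 and lactating 5 for Slc25a27) cannot be drawn on this axis.

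The 6 members that failed the filter were at or near the limit of detection. Slc25a2, a second ornithine carrier, had 61 counts over all libraries, with a count in 14 of the 18. Slc25a31, the ADP/ATP carrier of the testis, had 20 counts. Slc25a18, a second glutamate carrier, and Slc25a21, the oxodicarboxylate carrier, had 4 counts each. Slc25a54 had 2 counts and Slc25a41 had 1. Each of the last 4 was at or under 3 counts in all 18 libraries, so nothing can be said of them at this depth.

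Lactating and virgin females were compared first, to ask how the female ileum differs between these states. Lactating females had also been pregnant and may have eaten another diet, which cannot be told apart from lactation here. No carrier was called at an adjusted p under 0.05 by edgeR (0 of 41), where 0.0578% of all tested genes were called. At an unadjusted p under 0.05, 1 carrier was higher, Slc25a43, and 1 lower, Slc25a16, against 6.44% of all genes in either direction. DESeq2 called 1 carrier, Slc25a43 (log2 difference 1.81, adjusted p = 0.0283), where it called 69 of all 15572 genes. For limma voom these counts were 0 carriers and 2 genes. The median log2 difference was -0.06 over the 41 carriers and 0.00 over all genes. With the cell cycle score as a covariate, 2 carriers were higher and 4 lower at an unadjusted p under 0.05, against 11.6% of genes in either direction. The 6 libraries of each group overlapped for every tested carrier (0 of 41 separated in either direction, against 0.148% of genes higher and 0.141% lower).

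Virgin males were compared with virgin females to ask how the sexes differ. No carrier was called by edgeR (0 of 41, against 0.0835% of all genes), by DESeq2 (30 of all 15572 genes) or by limma voom (20 of all 15572 genes). At an unadjusted p under 0.05, 12 carriers were lower and 1 higher, where 6.02% of genes were lower and 2.3% higher (8.32% in all). This count moved with single libraries: 4 were lower without virgin female 1 or without virgin male 4 (3.8% and 3.95% of genes in either direction). Lower carriers numbered 6 without virgin female 5 (4.98% of genes), 7 without virgin female 2 (5.2%) and 5 without virgin male 6 (5.25%). Without virgin male 6, 1 was higher. Without virgin female 2 and virgin male 6 together 3 were lower and 1 higher (2.56% of genes), and without virgin female 4 the counts were 14 and 1 (17.3% of genes). With all libraries, the 12 were Slc25a3, Slc25a4, Slc25a15, Slc25a20, Slc25a34, Slc25a36, Slc25a43, Slc25a44, Slc25a45, Slc25a46, Slc25a48 and Slc25a51, and the higher one was Slc25a26. Their median over all 41 carriers was -0.15 on the log2 scale, against -0.01 over all genes. The cell cycle score had a higher mean in males, whose range of 4.66 to 5.12 lay within the 3.65 to 5.19 of virgin females. All 35 of its genes were higher in males, 0 of them at an unadjusted p under 0.05. With the score as a covariate, 2 carriers remained lower at an unadjusted p under 0.05 (Slc25a43 and Slc25a46), against 2.66% of genes in either direction. The median over the carriers was then -0.07. Library ranges overlapped for each of the 41 carriers, where 0.193% of genes were separated upward and 0.238% downward.

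**Figure D2:**
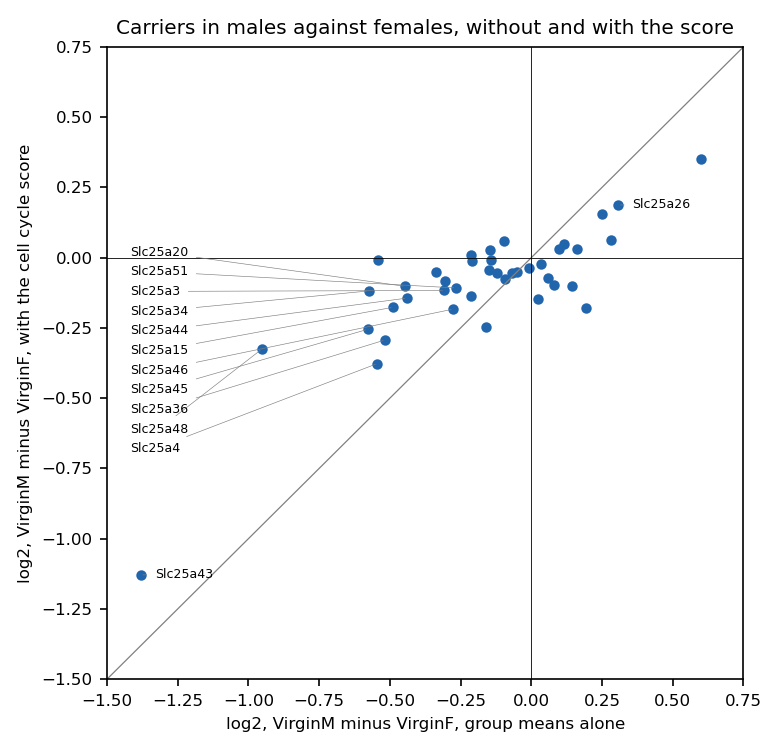
Log2 difference between virgin males and virgin females for the 41 tested carriers, from group means alone (x axis) and with the cell cycle score as a covariate (y axis); the grey diagonal marks equal values, and the 13 labelled carriers had an unadjusted p under 0.05 without the score. Slc25a48 moves from -0.95 to -0.33, while Slc25a43 goes from -1.38 to -1.13.

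Lactating females and virgin males differ in both sex and lactation, and this comparison shares its libraries with the other 2. Of the 41 carriers, 2 were higher in lactating females, Slc25a43 and Slc25a48, and 0 were lower, where 0.629% of all genes were called higher and 0.135% lower (0.764% in all). The same 2 were the carriers whose groups did not overlap (2 of 41, against 0.873% of genes separated upward and 0.469% downward). At an unadjusted p under 0.05, 8 carriers were higher and 3 lower, against 10.5% of genes higher and 5.4% lower. Without lactating 1 these counts were 5 and 1 (9.46% of genes in either direction), and without lactating 2 they were 11 and 7 (25.5%). The median was 0.10 over the carriers and -0.01 over all genes, and 0.00 over the carriers with the cell cycle score as a covariate. In that fit 7 carriers were higher and 1 lower at an unadjusted p under 0.05, against 10.3% of genes in either direction.

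Slc25a43, a carrier on the X chromosome whose substrate is not settled, lies at chrX:36743659-36777202 (GRCm38) on the plus strand. It ranged from 0.278 to 1.20 CPM in lactating females (median 0.988), from 0.118 to 0.475 CPM in virgin females (median 0.190) and from 0 to 0.183 CPM in virgin males (median 0.0757). Each lactating library thus lay above each male library, whereas lactating 2 and lactating 4 fell below the highest virgin female, virgin female 1. These are low levels: 193 counts over the 6 lactating libraries, 59 over the virgin female ones and 24 over the male ones. The log2 difference was 3.17 (SE 0.51) against virgin males, with an adjusted p of 0.00268. Of the males, 3 were at or under the floor of 3 counts and the highest had 9, against 12 to 45 counts in lactating libraries. The gene passed the filter on low counts through the lactating group, so the fitted size rests on few counts and the call is a description of a gene that is high there. Without the filter the difference was 3.17 (adjusted p = 0.00291). The call held under all 26 alternatives, with differences of 2.91 to 3.53 and adjusted p-values up to 0.0122. These refits reuse the same counts, so they describe its dependence on the processing and add no separate evidence. Against virgin females the difference was 1.79 (SE 0.46, adjusted p = 0.271), and virgin males lay -1.38 (SE 0.53, adjusted p = 0.565) from virgin females.

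Slc25a48, reported to carry choline into mitochondria, lies at chr13:56438355-56474239 on the plus strand. It ranged from 31.8 to 92.7 CPM in lactating females (median 47.5), from 12 to 55.9 CPM in virgin females (median 42.3) and from 15.4 to 26.4 CPM in virgin males (median 18.6). All lactating libraries exceeded all male ones, and virgin females spanned the space between, with virgin female 4 and virgin female 6 as low as the males. The difference from virgin males was 1.49 (SE 0.33, adjusted p = 0.0431), and that from virgin females was 0.54 (SE 0.33, adjusted p = 0.869). The call rests close to the threshold. It was lost without any 1 of lactating 1, 5 or 6, virgin female 3 or any single virgin male (1.28 to 1.60, adjusted p = 0.0542 to 0.118). It was also lost without virgin female 2 and virgin male 6 together (1.44, adjusted p = 0.116) and with the cell cycle score as a covariate (1.05, adjusted p = 0.0513). Beside this difference, all 16 villus genes and all 4 ileal enterocyte markers were higher in lactating females than in males, with medians of 0.58 and 0.95 on the log2 scale. Of these 20 genes 0 were called. At an unadjusted p under 0.05, 5 of the villus genes and all 4 enterocyte markers were higher, against 10.5% of all genes. All 8 enteroendocrine markers were higher as well (median 0.55), 4 of them at an unadjusted p under 0.05, and 1 was called, Gcg, which encodes proglucagon (0.90, SE 0.20, adjusted p = 0.0460). Of 7 Paneth cell markers 6 were lower (median -0.47, 0 called, 1 at an unadjusted p under 0.05). The part of these cell types in the result was not tested beyond the score.

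**Figure D3:**
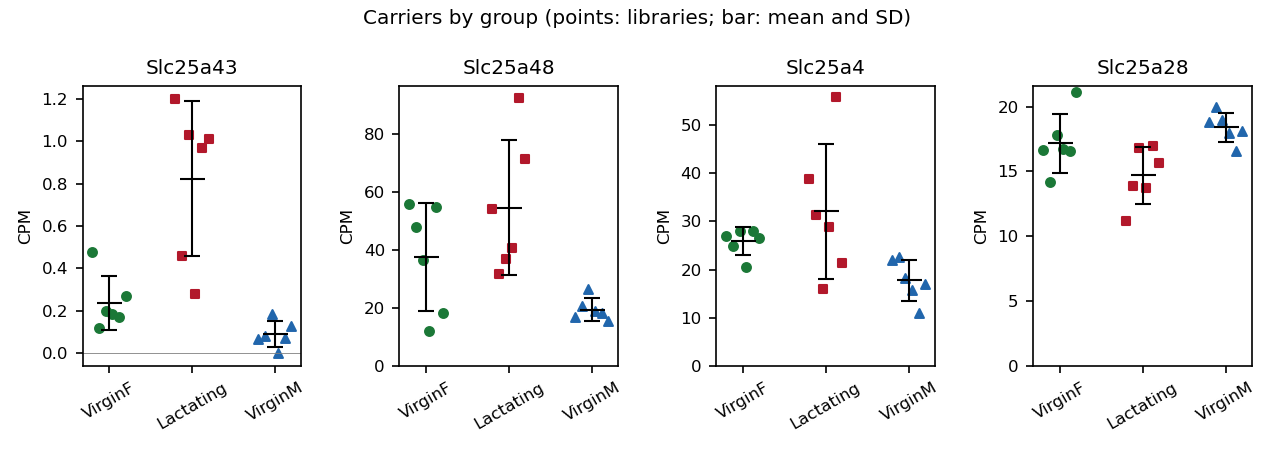
CPM of 4 carriers by group, 1 point per library, with the mean and SD as bars. Lactating libraries lie above all male libraries for Slc25a43 and Slc25a48, while for Slc25a4 and Slc25a28 the groups overlap.

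The windows upstream of these 2 genes are shown because they are the carriers called between groups. They hold the 200 bases from 250 to 51 before the RefSeq transcription start (GRCm38.p6), at chrX:36743382-36743581 and chr13:56438105-56438304, both on the plus strand. Capitals mark any match, on either strand, to the 8 motifs described with the promoters further on.
Slc25a43: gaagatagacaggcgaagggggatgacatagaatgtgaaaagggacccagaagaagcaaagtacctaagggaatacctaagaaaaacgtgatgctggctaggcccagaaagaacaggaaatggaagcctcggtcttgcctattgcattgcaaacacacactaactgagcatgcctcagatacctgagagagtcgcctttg
Slc25a48: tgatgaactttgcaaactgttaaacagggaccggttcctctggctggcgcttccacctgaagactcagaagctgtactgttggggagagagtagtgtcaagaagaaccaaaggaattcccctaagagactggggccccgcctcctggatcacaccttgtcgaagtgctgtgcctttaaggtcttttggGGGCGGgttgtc
The Slc25a43 window held no match to any of the 8 motifs, and the Slc25a48 window held 1, an SP1 box.

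Libraries within each group differ in how far they lean to crypt or villus, and the slope of each carrier on the cell cycle score, fitted with a mean per group, describes the family along that axis. One unit of the score is a doubling of the mean level of the cell cycle genes. No carrier belongs to the score, but both come from the same libraries and share their scaling. With a rising score, 19 of the 41 carriers fell and 8 rose, 27 in all, where 43.9% of all genes were called, 22.1% lower and 21.9% higher. The median slope was -0.20 over the carriers and 0.00 over all genes. Among the 26 carriers with a mean of at least 10 CPM, 18 fell and 2 rose, against 31.5% lower and 20.6% higher among all genes at that level. Falling carriers were thus mostly well-expressed genes, and 6 of the 8 that rose were under 10 CPM.

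**Figure D4:**
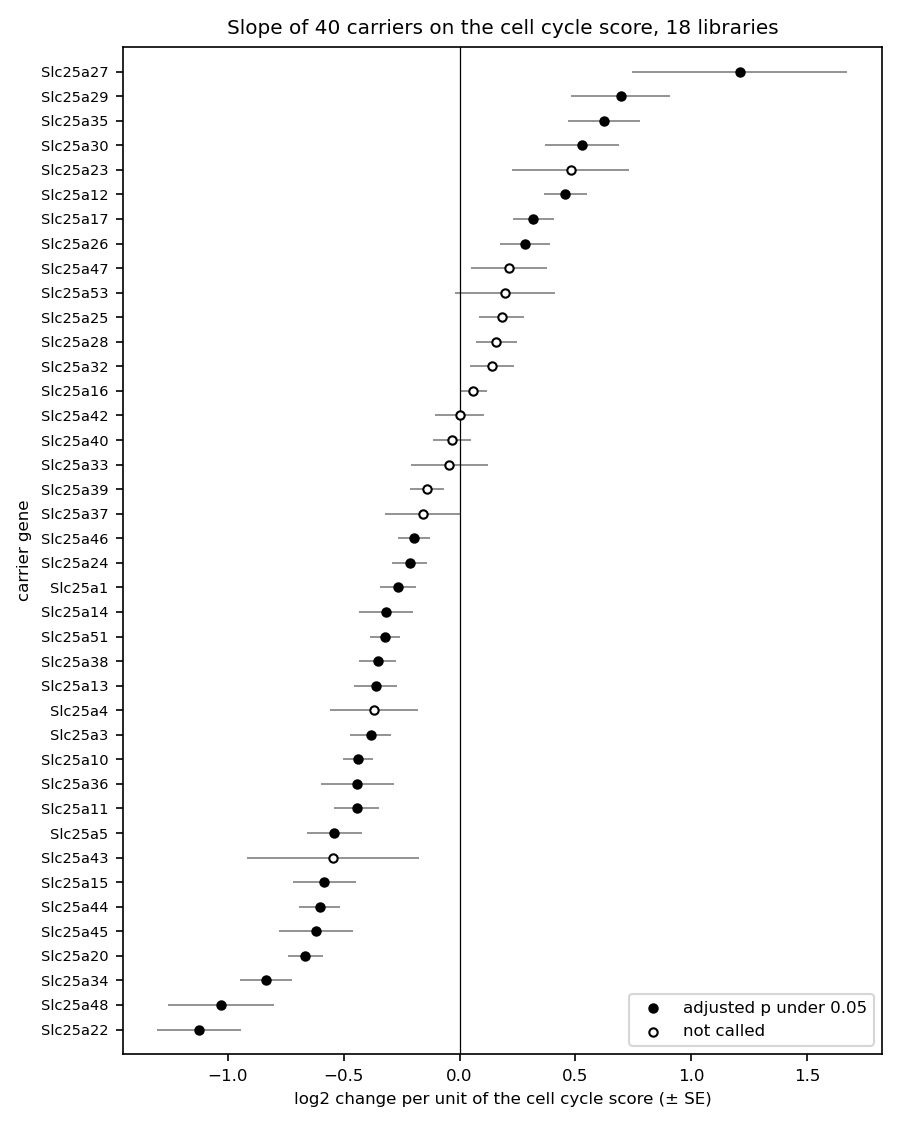
Slope of 40 of the 41 tested carriers on the cell cycle score in log2 per unit of score, with its SE as a bar, over 18 libraries; filled points had an adjusted p under 0.05. The 19 called carriers on the left run down to -1.12 for Slc25a22, and 7 of the 8 that rose are drawn on the right, up to 1.21 for Slc25a27.

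The fit was repeated in each group. Within virgin females alone 20 of 39 tested carriers were called, 15 lower and 5 higher, against 24.8% of all genes. Within lactating females 3 of 40 were called, Slc25a20, Slc25a22 and Slc25a44, all lower, against 10.6% of genes. Within virgin males, whose score spanned only 4.66 to 5.12, edgeR called 0 of 40 carriers and 0% of genes, and at an unadjusted p under 0.05 there were 4 lower and 1 higher, against 11.9% of genes. A test of whether the slope differed between groups called 0 of 41 carriers and 0% of all genes by edgeR. Without adjustment 2 carriers, Slc25a13 and Slc25a25, were under 0.05 in this test, against 2.62% of genes, and DESeq2 and limma voom called 0. Lactating 1 and virgin female 1 had the lowest scores. Without both, 18 carriers were called, 14 lower and 4 higher, of which 17 were among the 27. Over all genes 5125 of 15690 were called. With the share of mitochondrially encoded counts as a covariate, 25 of the 27 were called, beside 6658 of all 15572 genes. Both of these alternatives were chosen after seeing the data.

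Counts by role are given next, each to be read beside the 22.1% of all genes that fell and the 21.9% that rose. Carriers of adenine nucleotides and phosphate numbered 8, of which 6 were tested, 3 fell with the score and 0 rose. Slc25a5 ranged from 932 to 1625 CPM in lactating females (median 1381), from 877 to 2127 CPM in virgin females (median 1233) and from 828 to 1283 CPM in virgin males. The groups overlapped widely. Its slope was -0.54 (SE 0.12, adjusted p = 0.00151). Slc25a3, which brings in the phosphate for ATP synthesis, ranged from 585 to 944 CPM (median 828) in lactating females, 587 to 1034 CPM (median 755) in virgin females and 520 to 720 CPM (median 597) in virgin males. It fell by 0.38 per unit of score on the log2 scale (SE 0.088, adjusted p = 0.00185). Slc25a24 had group medians of 277, 282 and 256 CPM in the same order, a range of 235 to 353 CPM, and a slope of -0.22 (SE 0.076, adjusted p = 0.0286). These were the 3 most abundant carriers per length.

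Slc25a4, the ADP/ATP carrier known from heart and muscle, was a minor form here. It ranged from 16 to 55.9 CPM in lactating females (median 30.1), from 20.5 to 28.1 CPM in virgin females (median 26.9) and from 11 to 22.6 CPM in virgin males (median 17.6). Lactating 1, 2, 4 and 5 lay above every library of the other groups, and lactating 3 and 6 lay within the male range. The difference between lactating females and virgin males was 0.85 (SE 0.23, adjusted p = 0.103), which DESeq2 called (0.86, adjusted p = 0.0188), as did edgeR without lactating 3 (0.99, adjusted p = 0.0234). In this comparison DESeq2 called 410 of 15572 genes, and edgeR without lactating 3 called 178 of 15740. Its slope of -0.37 was not called (adjusted p = 0.124). Slc25a25 and Slc25a23, both calcium-regulated ATP-Mg carriers, had slopes of 0.18 and 0.48 that were not called (adjusted p = 0.141 and 0.133).

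Carriers of carboxylates and acyl groups numbered 5, of which 4 were tested, and all 4 fell with the score, where 22.1% of all genes and 31.5% of those at 10 CPM or more fell. Slc25a20, which brings acylcarnitines in for fatty acid oxidation, ranged from 73.3 to 151 CPM in lactating females (median 109), from 75.7 to 175 CPM in virgin females (median 121) and from 73.4 to 98.2 CPM in virgin males (median 90.9). The libraries with the lowest scores were highest in both female groups. It had the smallest p of the family, with a slope of -0.66 (SE 0.076, adjusted p = 2.57e-06). Taken by group, the slope was -0.67 among virgin females (adjusted p = 0.00637), -0.63 among lactating females (adjusted p = 0.0303) and -0.53 among males (adjusted p = 0.535).

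Slc25a10, which exchanges malate or succinate for phosphate, ranged from 127 to 191 CPM in lactating females, 127 to 233 CPM in virgin females and 126 to 167 CPM in virgin males, with medians of 158, 164 and 143 CPM. The groups shared their lower ends. Its slope was -0.44 (SE 0.065, adjusted p = 3.95e-05). Slc25a11, the oxoglutarate carrier of the malate-aspartate shuttle, ranged from 76.7 to 158 CPM over all libraries and fell by 0.44 per unit (SE 0.096). It shares 8.92% of its exon bases with Rnf167 on the other strand, and whether reads were counted by strand was not given in the sources used here. Slc25a1, which exports citrate for fatty acid synthesis, ranged from 87.5 to 123 CPM, 92.1 to 155 CPM and 95.8 to 115 CPM in lactating females, virgin females and virgin males, and its slope was -0.27 (SE 0.077, adjusted p = 0.00978).

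Amino acid carriers went both ways: of 11 members 9 were tested, 5 fell and 2 rose (22.1% and 21.9% of all genes). Slc25a22, a glutamate carrier, ranged from 103 to 400 CPM in lactating females (median 264), from 99.2 to 246 CPM in virgin females (median 237) and from 78.5 to 246 CPM in virgin males (median 130). Its highest library was 5.09 times its lowest, and low libraries occurred in every group. The slope of -1.12 (SE 0.18, adjusted p = 8.74e-05) was the steepest fall in the family. Within lactating females it was -1.15 (adjusted p = 0.0212) and within virgin females -0.88 (adjusted p = 0.0208).

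Slc25a44, which takes branched-chain amino acids into mitochondria, ranged from 54.2 to 105 CPM in lactating females (median 74.3), from 53.8 to 98.3 CPM in virgin females (median 81.2) and from 42.0 to 76.9 CPM in virgin males (median 55.3). Groups overlapped, and its slope was -0.60 (SE 0.087, adjusted p = 3.07e-05). Slc25a15, the ornithine and citrulline carrier of the urea cycle, ranged from 177 to 273 CPM, 163 to 399 CPM and 119 to 244 CPM in the same order of groups. Its slope was -0.58 (SE 0.13, adjusted p = 0.002). Slc25a38, the glycine carrier needed for haem synthesis, ranged from 11.8 to 21.7 CPM over all libraries and fell by 0.35 per unit (SE 0.080). Slc25a29, a carrier of basic amino acids, was low at 0.529 to 1.74 CPM and rose with a slope of 0.70 (SE 0.21, adjusted p = 0.0133). That call was lost without lactating 1 (adjusted p = 0.0507), without virgin female 4 (adjusted p = 0.0700) and without lactating 1 and virgin female 1 together (adjusted p = 0.0620).

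The pair of aspartate and glutamate carriers, which feed the malate-aspartate shuttle, had slopes of opposite sign over the 18 libraries. Slc25a13, known as citrin, ranged from 26.7 to 31.2 CPM in lactating females (median 29.1), from 20.6 to 46.7 CPM in virgin females (median 32.1) and from 23.7 to 29.7 CPM in virgin males (median 27.2). Its slope was -0.36 (SE 0.094, adjusted p = 0.00448). Slc25a12, known as aralar, ranged from 7.42 to 11.7 CPM (median 9.21), 7.19 to 16.2 CPM (median 10.1) and 9.68 to 13.0 CPM (median 11.2) in these groups, with a slope of 0.46 (SE 0.094, adjusted p = 0.000757). Among virgin males alone both slopes were positive, 0.17 for Slc25a13 and 0.55 for Slc25a12, neither of them called. Among the carriers Slc25a13 ranked first by edgeR for a slope that differed between groups, a difference that was not called (adjusted p = 1). Its slope was -0.13 among lactating and -0.62 among virgin females. The highest Slc25a12 value and the lowest Slc25a13 value both came from virgin female 6.

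Per length of exon, the ratio of Slc25a13 to Slc25a12 ran from 2.46 to 12.6 among virgin females, from 4.41 to 8.12 among lactating females and from 3.54 to 5.48 among males. Slc25a13 was thus the more abundant in every library. The log2 ratio fell with the cell cycle score over 18 libraries, with Pearson's r of -0.81 (permutation p = 2e-05, adjusted p = 1e-04) and Spearman's rho of -0.887 (permutation p = 1e-05, the smallest that 100000 permutations give, adjusted p = 5e-05). Leaving out the pair of libraries with scores farthest from the median gave an r of -0.698. By group, r was -0.899 among virgin females, -0.959 among lactating females and -0.226 among males (6 libraries each). The permutation took no account of group. The ratio draws on the same 2 genes whose slopes are given above, so it is not a separate result. The ratios of 4 other pairs were examined in the same family, and none passed: r was -0.005 for Slc25a5 to Slc25a4 (permutation p = 0.98, adjusted p = 0.98) and -0.41 for Slc25a37 to Slc25a28 (permutation p = 0.092, adjusted p = 0.153). It was -0.43 for Slc25a36 to Slc25a33 (permutation p = 0.073, adjusted p = 0.153) and -0.25 for Slc25a39 to Slc25a40 (permutation p = 0.32, adjusted p = 0.4). Slc25a39 and Slc25a40, which take glutathione into mitochondria, ranged from 96.8 to 143 CPM and from 4.09 to 5.74 CPM, and neither slope was called (-0.14 and -0.03, adjusted p = 0.129 and 0.772).

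**Figure D5:**
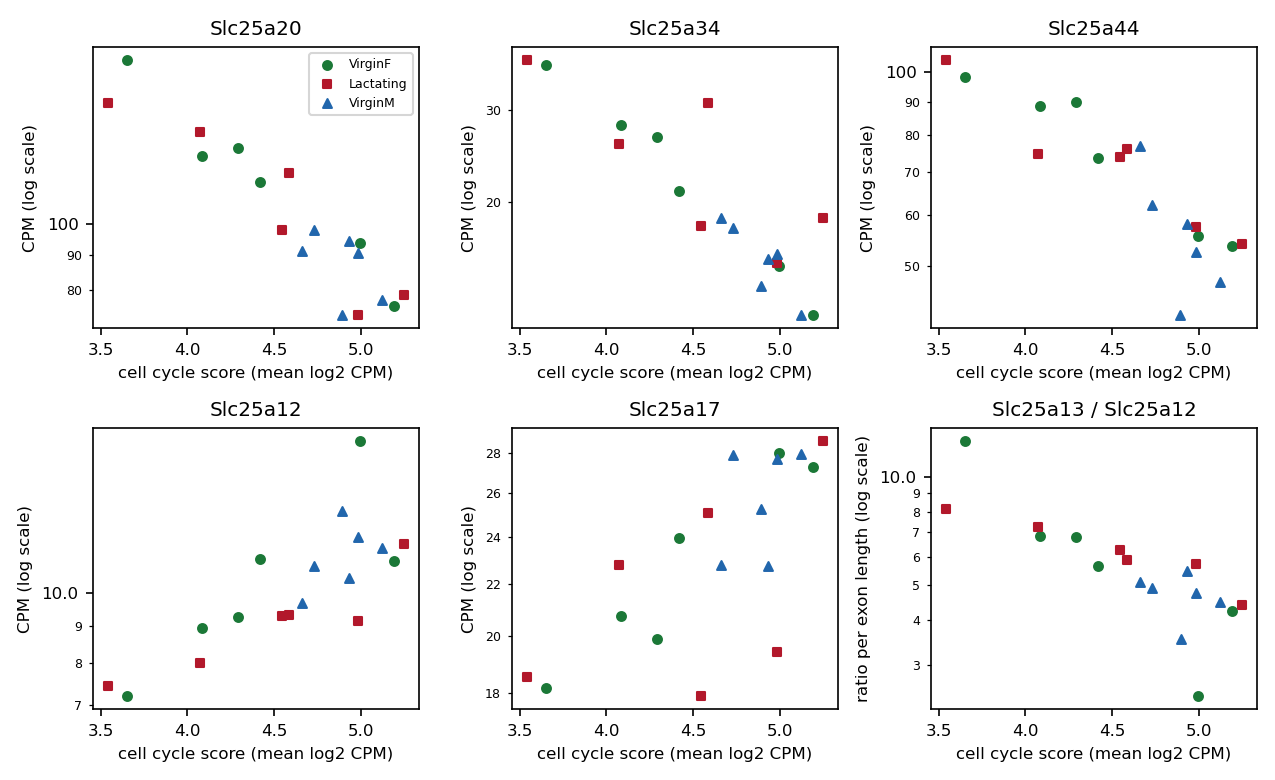
CPM of 5 carriers and the per-length ratio of Slc25a13 to Slc25a12 (log axes) against the cell cycle score, 1 point per library, coloured by group. Slc25a20, Slc25a34 and Slc25a44 fall as the score rises from 3.54 to 5.25, Slc25a12 and Slc25a17 rise, and the ratio falls from up to 12.6 to as low as 2.46.

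Carriers of cofactors and nucleotides were all tested, and of the 9, 3 rose and 2 fell (21.9% and 22.1% of all genes). Slc25a17, a cofactor carrier that sits in the peroxisomal membrane, ranged from 17.9 to 28.6 CPM in lactating females (median 21.1), from 18.2 to 28.0 CPM in virgin females (median 22.3) and from 22.8 to 27.9 CPM in virgin males (median 26.5). Male libraries occupied the upper part of the female range. It rose by 0.32 per unit of score (SE 0.088, adjusted p = 0.00703), a call lost without lactating 1 and virgin female 1 (adjusted p = 0.0619). Slc25a26, which carries S-adenosylmethionine, ranged from 3.23 to 7.21 CPM with a slope of 0.28 (SE 0.11, adjusted p = 0.0400). It shares 3% of its exon bases with Lrig1 on the other strand. Lrig1 had 32390 counts in all against 4371 for Slc25a26, so their reads may be mixed.

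Slc25a51, the NAD carrier, ranged from 76.5 to 104 CPM in lactating females (median 90.0), from 69.1 to 110 CPM in virgin females (median 91.7) and from 66.7 to 82.1 CPM in virgin males (median 74.3). Groups overlapped, and the slope was -0.32 (SE 0.065). Slc25a36, a pyrimidine nucleotide carrier, ranged from 58.1 to 111 CPM, 71.8 to 179 CPM and 64.2 to 89.3 CPM in these groups, with a slope of -0.44 (SE 0.16, adjusted p = 0.0295). Virgin males lay -0.52 (SE 0.20, adjusted p = 0.565) from virgin females. Its relative Slc25a33 ranged from 1.2 to 2.59 CPM over all libraries, with a slope of -0.04 that was not called. Slc25a16, linked to coenzyme A, ranged from 16.5 to 21.2 CPM, and its highest library was 1.29 times its lowest, the smallest such ratio among the tested carriers. Its log2 difference between lactating and virgin females was -0.16 (SE 0.075, adjusted p = 0.770). Slc25a42, which brings coenzyme A into the matrix, ranged from 6.62 to 10.5 CPM in lactating females and from 8.56 to 12.6 CPM in virgin females (log2 difference -0.26, SE 0.13, adjusted p = 0.780).

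The iron carriers showed no called change. Slc25a37 (mitoferrin-1) ranged from 106 to 212 CPM in lactating females (median 148), from 123 to 243 CPM in virgin females (median 154) and from 124 to 170 CPM in virgin males (median 135), with a slope of -0.16 (SE 0.16, adjusted p = 0.442). Slc25a28 (mitoferrin-2) ranged from 11.2 to 17 CPM (median 14.7), 14.1 to 21.1 CPM (median 16.7) and 16.6 to 20.0 CPM (median 18.5). Lactating and male libraries met only at their edges. The difference between them was -0.33 (SE 0.11, adjusted p = 0.186), and lactating females lay -0.23 (SE 0.11, adjusted p = 0.777) from virgin females.

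The 3 carriers that resemble uncoupling proteins were low, and 2 rose and 1 fell (21.9% and 22.1% of all genes). Slc25a30 ranged from 0.849 to 2.56 CPM over all libraries and rose by 0.53 per unit (SE 0.16, adjusted p = 0.0118), a call lost without lactating 2 (adjusted p = 0.0523). Slc25a27 ranged from 0 to 0.933 CPM and rose by 1.21 (SE 0.46, adjusted p = 0.0424). It had 0 to 51 counts per library, and 2 libraries, lactating 5 and virgin female 1, were at or under the floor. Within virgin males alone its slope was -0.55, and it was not tested within either female group. Slc25a14 ranged from 2.92 to 5.01 CPM and fell by 0.32 (adjusted p = 0.0331).

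Carriers whose substrate was long unknown or is unsettled numbered 9, of which 8 were tested, 4 fell with the score and 1 rose (22.1% and 21.9% of all genes). Slc25a34 ranged from 15.2 to 37.6 CPM in lactating females (median 22.2), from 12.1 to 36.8 CPM in virgin females (median 23.8) and from 12.1 to 18.6 CPM in virgin males (median 15.7). The highest male library was below the median of either female group. Its slope was -0.83 (SE 0.11, adjusted p = 1.6e-05), and within virgin females it was -0.99 (adjusted p = 0.00406). Slc25a48 fell by 1.03 per unit (SE 0.23, adjusted p = 0.0014). Slc25a45 ranged from 42.0 to 164 CPM and fell by 0.62 (SE 0.16). Slc25a46, a protein of the outer membrane that acts in mitochondrial shape, ranged from 44.7 to 60.0 CPM, 45.1 to 60.9 CPM and 34.5 to 45.8 CPM in lactating females, virgin females and virgin males. Only the males reached under 44.7 CPM. Their difference from virgin females was -0.28 (SE 0.096, adjusted p = 0.565) and the slope was -0.20 (SE 0.069).

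Slc25a35 rose by 0.62 per unit of score (SE 0.16, adjusted p = 0.00351) and ranged from 4.48 to 12.5 CPM in lactating females, 4.56 to 13.4 CPM in virgin females and 6.01 to 12.2 CPM in virgin males. It shares 31.3% of its exon bases with Rangrf on the other strand, which had 8528 counts in all against its own 7119, so their reads may be mixed. Slc25a43 had a slope of -0.55 that was not called (SE 0.37, adjusted p = 0.241).

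The upstream windows of 4 carriers that changed along the axis are shown, 2 that fell (Slc25a20 and Slc25a34) and 2 that rose (Slc25a12 and Slc25a17). In the RefSeq annotation of GRCm38.p6 they lie at chr9:108661886-108662085 on the plus strand and, on the minus strand, at chr4:141623885-141624084, chr2:71367806-71368005 and chr15:81360816-81361015. Each is written along its gene's strand, and capitals again mark motif matches.
Slc25a20: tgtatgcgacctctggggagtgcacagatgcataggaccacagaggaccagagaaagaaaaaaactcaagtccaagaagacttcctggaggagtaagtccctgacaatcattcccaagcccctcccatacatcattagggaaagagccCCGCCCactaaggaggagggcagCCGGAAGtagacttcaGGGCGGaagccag
Slc25a34: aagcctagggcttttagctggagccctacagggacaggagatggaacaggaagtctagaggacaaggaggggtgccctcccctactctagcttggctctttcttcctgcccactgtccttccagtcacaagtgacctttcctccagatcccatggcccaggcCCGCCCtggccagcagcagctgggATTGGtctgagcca
Slc25a12: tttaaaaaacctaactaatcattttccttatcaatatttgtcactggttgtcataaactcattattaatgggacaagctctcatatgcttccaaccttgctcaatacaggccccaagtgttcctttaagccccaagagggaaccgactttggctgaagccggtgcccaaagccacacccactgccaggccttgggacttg
Slc25a17: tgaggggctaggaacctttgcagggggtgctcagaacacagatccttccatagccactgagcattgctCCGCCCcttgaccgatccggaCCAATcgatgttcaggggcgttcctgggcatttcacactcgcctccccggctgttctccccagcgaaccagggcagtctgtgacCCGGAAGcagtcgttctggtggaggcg
The Slc25a20 and Slc25a17 windows each held 3 matches, among them CCGGAAG and the SP1 box. Slc25a34 had 2 matches and Slc25a12 had 0.

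RefSeq windows were found for 36 of the 47 members, 46 windows in all, and 8 motifs were searched on both strands beside the same search in 32851 windows of all genes. The SP1 box GGGCGG was in 22 of the 46 member windows (47.8%) and in 24.6% of all windows. The ETS motif CCGGAAG, bound by GABPA, a regulator of mitochondrial genes, was in 10.9% against 3.98%, in Slc25a3, Slc25a4, Slc25a17, Slc25a20 and Slc25a54. The CCAAT box was in 39.1% against 28.4%, the E2F motif GCGGGAA in 2.17% against 2.95%, and the CDX2 motif TTTATTG in 2.17% against 3.47%. Exact matches to the NRF1 core, the ERR motif TCAAGGTCA and the HNF4 motif CAAAGTCCA were in 0 of the member windows and in 0.444%, 0.323% and 0.295% of all windows. Member windows had a median of 7 CpG and 55.5% GC, against 4 CpG and 51.5% GC in all windows, and windows of 1 gene can overlap. SP1 boxes were in the windows of 10 of the 16 falling carriers with a window, 2 of the 4 rising ones and 8 of the 12 tested ones with no called slope.

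Genes that work with the carriers were followed in 9 lists. Between groups, 2 genes of these lists were called, both higher in lactating females than in virgin males. Both were in the list of cofactor enzymes and transporters (2 of 15, where 0.629% of all genes were called higher). The lists were chosen with earlier results of these data known, so this share describes the list and tests nothing. Slc19a3, a thiamine transporter of the plasma membrane, stood at 0.556 to 5.42 CPM in lactating females, 0.104 to 0.755 CPM in virgin females and 0.0517 to 0.283 CPM in virgin males (log2 difference 2.87, SE 0.61, adjusted p = 0.0345). Its male values reached under the floor, so this size rests on few counts. The call describes a gene that is high in lactating libraries. Rfk, riboflavin kinase, stood at 659 to 1582 CPM, 456 to 1142 CPM and 343 to 602 CPM (0.99, SE 0.23, adjusted p = 0.0479). For both genes lactating and male libraries did not overlap (0.873% of all genes were separated this way), while lactating and virgin females did. Both also fell with the cell cycle score, Slc19a3 by 1.38 per unit (SE 0.36, adjusted p = 0.00496) and Rfk by 0.71 (SE 0.11, adjusted p = 5.98e-05). The villus genes and enterocyte markers were higher in lactating females than in males too. Of these, 0 were called, while 5 of 16 and 4 of 4 were higher at an unadjusted p under 0.05. Whether this bears on Slc19a3 and Rfk was not tested.

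Along the score, partners of the carnitine carrier went down with it, 7 lower and 1 higher of 9 tested, among them Slc22a5, the carnitine transporter of the cell surface (-0.78, SE 0.10, adjusted p = 8.29e-06), and Crat, carnitine acetyltransferase (-0.51, SE 0.095, adjusted p = 0.000346). Enzymes of the shuttles and of citrate were 9 lower and 2 higher of 14, with Cs, citrate synthase, at -0.49 (SE 0.092) and Acly, which splits citrate in the cytosol, at 0.45 (SE 0.063). Enzymes from glutamine to citrulline were 7 higher and 2 lower of 14, with Cps1, which makes carbamoyl phosphate, at 1.04 (SE 0.080) and Ass1, argininosuccinate synthase, at 0.88 (SE 0.12). The ornithine carrier Slc25a15 and the glutamate carrier Slc25a22 thus fell along a score on which Cps1 rose.

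Of cofactor enzymes 6 were higher and 3 lower of 15, with the folate enzymes Shmt2 at 0.81 and Mthfd2 at 0.95. Genes of mitochondrial biogenesis and import were 10 higher and 1 lower of 19, among them Pprc1 at 1.04 and Agk at 0.57. Iron and haem genes were 3 higher and 2 lower of 14, and other carriers and pores 1 higher and 3 lower of 12. Mitochondrially encoded genes were 0 higher and 5 lower of 13, among them mt-Co1 at -0.49, and of 16 genes of ATP synthase 0 were called by edgeR, with 4 lower at an unadjusted p under 0.05. These shares stand beside 21.9% higher and 22.1% lower over all genes.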

How the data were processed

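RNA of 18 libraries was sequenced in bulk. The authors deposited 1 table of raw counts per library. They name FastQC 0.11.5, the aligner HISAT2 2.0.4, the read counter featureCounts with Subread 2.0.0, DESeq2 1.24.0 and the build GRCm38, per the submitters' processing notes. Not given in the sources used here: annotation release, strand setting and handling of reads with several matches. Symbols came from GENCODE M21, which held 47310 of the 47729 identifiers, and 0 rows named no gene. 1 carrier is counted in the totals and is not reported here by itself. The pseudogene Slc25a5-ps had 71 counts in all, and Slc25a5 reads that match it may have been dropped or split.

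Genes were filtered with filterByExpr and scaled with TMM, and group means were fitted jointly over all 18 libraries in the quasi-likelihood framework of edgeR 4.0.16 (R 4.3.3). A gene was called at a Benjamini-Hochberg adjusted p under 0.05 over 15572 genes, and adjusted p-values are from this test unless another tool is named. SEs are the absolute log2 difference over the square root of F. The slope on the cell cycle score (prior count 2) had a mean per group. Alternatives were DESeq2 1.42.0, limma voom 3.58.1, RLE factors, no filter, a replicate block, the compared groups alone, the score as a covariate, other scores and left-out libraries. Ratios were tested by two-sided permutation of libraries without regard to group, adjusted over 5 pairs. Members given in full were those called between groups, the 4 smallest p-values per comparison, the 6 smallest per slope direction, the 6 highest levels and 5 pairs; from other lists called genes, or else 2 by smallest p. The members and lists were chosen with earlier results of these data known. No 2 libraries agreed within sampling noise (lowest chi-square per degree of freedom 32.7). Counts lack molecular identifiers, so floors cover counting error only. Tested on simulated data of lactating against virgin female libraries, the fit recovered 44% of genes changed 1.5-fold and 82% of those changed 2-fold, with 12 false calls in the run of 15400 genes. In simulated slopes it recovered 26% at 0.4 log2 per unit, 58% at 0.6 and 88% at 1, with 7 false calls in the run of 15406 genes. Changes were simulated only in genes with a mean over 1 CPM, and genes were drawn independently of each other. These rates need not hold for carriers under that level, or where genes vary together along the crypt-villus axis.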

Additional observations from a re-analysis of the deposited data

Results flagged for a closer look

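In 4 of 90 groups of 6 libraries, examined over the 30 carriers given with their values, 1 library stood far from the rest (Dixon's test at the 95% level). Chance alone gives about 1 in 20. Slc25a1 was at 155.2 CPM in virgin female 1, against 92.1 to 115 CPM in the other virgin females. Slc25a16 was at 19.2 CPM in lactating 2, against 16.5 to 17.2 CPM. Slc25a33 was at 2.55 CPM in virgin male 4, against 1.42 to 1.84 CPM. Slc25a42 was at 12.6 CPM in virgin female 2, against 8.56 to 9.93 CPM.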

How the results depend on the processing

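DESeq2 called 1 carrier (Slc25a43) between lactating and virgin females, where edgeR called 0. Over all 15572 genes they called 69 and 9. Between lactating females and virgin males the 2 calls became 1 (Slc25a43) with a replicate block, without virgin female 2 and virgin male 6, and with the cell cycle score as a covariate. Over all genes these settings called 114 of 15572, 61 of 15594 and 117 of 15572. Leaving out 1 library at a time gave 1 to 3 calls, where 62 to 311 of all genes were called. Only 1 was left without lactating 1, 5 or 6, virgin female 3 or any virgin male, and 3 were called without lactating 3. Of the 27 slopes called, 12 held with the replicate block (1 higher, 11 lower), 3 within lactating females and 0 within virgin males. With the block 3429 of 15572 genes were called, against 6843 in the main fit. When 1 library was left out, 21 to 27 carriers were called, beside 5647 to 7241 of all genes. DESeq2 and RLE factors gave 27, limma voom 29, no filter 23, the stem cell score 26 and the villus score 21. In the same order, these settings called 7379, 6885 and 8605 of 15572 genes, 6188 of 28752, and 7172 and 5790 of 15572. Of the 27 called slopes 4 turned their sign in 1 setting each, within virgin males: Slc25a13 (0.17), Slc25a14 (0.33), Slc25a26 (-0.07) and Slc25a27 (-0.55). Of differences that were not called, 23 of 41 between lactating and virgin females, 12 of 41 between virgin groups and 7 of 39 between lactating females and males turned in at least 1 alternative, as did 7 of 14 slopes not called. The 2 called differences did not. Replicate numbers did not pair the libraries: same-numbered libraries correlated at -0.219 to 0.477, over 0.1 in 7 of 18 pairs, and 5 of 18 libraries matched their own number best. Carriers under 1 CPM, such as Slc25a43 and Slc25a27, rest on few counts.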
